A study of Arabidopsis thaliana with 6 samples.

Results

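Developing seeds of the Arabidopsis line i4g1 differed from wild type (WT) in many nuclear transcripts. Genes for ribosomes, photosystems and chlorophyll synthesis stood mostly higher in i4g1. Genes for pentatricopeptide repeat proteins and protein phosphatases 2C stood more often lower. The members are the nuclear genes of the deposited table, that is, loci whose names do not start with ATCG or ATMG, without the 18S rRNA locus AT3G41768. Of 34001 loci in the table, 33491 were nuclear by this rule, and 15422 of them reached a mean of at least 10 normalised counts over the 6 libraries. The other 18069 were not tested. The rule for the members uses no difference between the lines.

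The lines were i4g1, ar21 and WT, all of strain Columbia-0, with 2 libraries a line that the labels call biological replicates. Seeds were taken 13 days after flowering, without treatment, from siliques whose flowers had been marked on the day they opened, and growth chambers were set to 22 °C in the light and 17 °C in the dark on a cycle of 16 h and 8 h. The extraction text of the labels allows for seeds 1 day younger. Each library is RNA of a pool of whole seeds, so embryo, endosperm and seed coat are mixed, and fewer cells of a type and less RNA per cell cannot be told apart. The labels do not say what was changed in i4g1. What is known of the study gives AT5G57870, which codes for eIFiso4G1, as the mutated gene of i4g1, and gives ar21 a mutation there too. The ar21 libraries enter here through the shared estimate of the spread and where the lines are set side by side.

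Translation of most plant messenger RNAs begins when a cap-binding complex, eIF4F or its plant-specific form eIFiso4F, loads the ribosome at the capped end. The large subunits of these complexes, eIF4G and eIFiso4G, are scaffolds that hold the cap-binding protein, the RNA helicase eIF4A and poly(A)-binding protein together. At the stage sampled the embryo fills its cells with storage protein and oil and its plastids are green, and the seed coat has laid down mucilage and flavonoids.

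The library composition differed between the lines. Recovered reads were 4972656 and 8435759 in i4g1 seeds, against 5187867 and 3418773 in WT seeds. AT3G41768 took 11.5% and 3.90% of them in i4g1 and 40.8% and 60.7% in WT, and organelle transcripts took 0.99% and 0.30% of the rest in i4g1 and 6.97% and 8.82% in WT. Nuclear genes were left with 4281338 and 7980463 reads in i4g1, against 2805136 and 1205780 in WT, so that 1 read stood for 2.80 normalised counts in WT replicate 2. Every i4g1 library lay below every WT library in both shares, so line and composition cannot be told apart. The part of this in the differences below was not tested. Of 4 tested embryo markers, limma and edgeR called 0 and DESeq2 1 lower (unadjusted in limma, 1 lower), with a median difference of −0.52. Of 4 tested endosperm markers 1 was called higher, with a median of 0.87 and 3 with both i4g1 libraries above both WT libraries, and of 9 tested seed coat markers 2 were called higher, with a median of 0.05. Summed normalised counts of the embryo markers were 189116 and 128566 in i4g1, against 173957 and 157114 in WT. Those of the endosperm markers were 104752 and 81677 in i4g1, against 81394 and 101526 in WT. ATEPR1, with 104563 and 81499 in i4g1 and 81308 and 101400 in WT, made up nearly all of the endosperm sum. The other tested endosperm markers, RGE1, ALE1 and MYB118, were the 3 above WT in both i4g1 libraries. Whether a different share of these tissues had a part in the differences was not tested. The 8 shoot and fruit wall markers summed to 2208 and 2525 normalised counts in i4g1, against 2646 and 2335 in WT, with GL1 and IND1 at 0, and SUC2 and TGG1, which code for a phloem sucrose carrier and a myrosinase, made up most of that sum. Of the 9 rows that match embryo markers, 3 (1 of CRU3 and 2 of CRA1) were listed at 0 in all 4 libraries. The other rows of both genes had low values, while CRU2, of the same cruciferin family, was among the most abundant. The level of CRU3 and CRA1 is therefore not read from these rows. A CRA1 row, with 22.7 and 10.4 in i4g1 and 23.2 and 47.6 in WT, is still 1 of the 4 tested embryo markers behind the median of −0.52. SESA1, with 0 and 0 in i4g1 and 3.66 and 0 in WT, was not tested.

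eIFiso4G1 (chromosome 5, 23439498 to 23443815, + strand, build TAIR10.1) had 24.5 and 45.6 normalised counts in i4g1 seeds, 116 and 123 in ar21 seeds, and 368 and 454 in WT seeds. Both i4g1 libraries lay far below all other libraries, and ar21 lay between. The gene fell by 3.57 on the log2 scale against WT (SE 0.24, adjusted p = 8.97e-06), and it also differed from ar21 (log2 difference i4g1 minus ar21 −1.80 ± 0.24, adjusted p = 0.0108). Adjusted p-values are from limma with Benjamini-Hochberg adjustment over all 15591 loci tested, with a threshold of 0.05, and each ± beside a log2 difference is its standard error. Differences are i4g1 minus WT on the scale log2(normalised count + 1).

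The paralog eIFiso4G2 (chromosome 2, 10225225 to 10228698, − strand) had 246 and 220.4 normalised counts in i4g1 seeds, 201 and 231 in ar21 seeds, and 141 and 134 in WT seeds (log2 difference 0.75 ± 0.14, adjusted p = 0.00297). Its i4g1 libraries stood above both WT libraries. EIF4G (chromosome 3, 22261648 to 22268496, + strand) codes for the large subunit of eIF4F. It had 1033 and 1252 normalised counts in i4g1 seeds, 1070.1 and 1149.9 in ar21 seeds, and 1046 and 988 in WT seeds, and did not pass the test (log2 difference 0.16 ± 0.13, adjusted p = 0.391). Of 18 genes listed for eIF4F and poly(A)-binding proteins, 15 were tested, 5 were called higher and 2 lower. The helicase gene EIF4A1 had 1727 and 1498 normalised counts in i4g1 seeds, against 962 and 955 in WT seeds (log2 difference 0.75 ± 0.12, adjusted p = 0.00108), with i4g1 above WT in every library. Without i4g1 replicate 1 the list had 2 genes called higher. EIF4B1, for a helicase cofactor, had 155 and 164 normalised counts in i4g1 seeds, against 244 and 204 in WT seeds (log2 difference −0.48 ± 0.15, adjusted p = 0.0355), and its call was lost in other fits (adjusted p = 0.15 without i4g1 replicate 1 and 0.0808 without i4g1 replicate 2 and 0.148 without WT replicate 1).

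**Figure D1:**
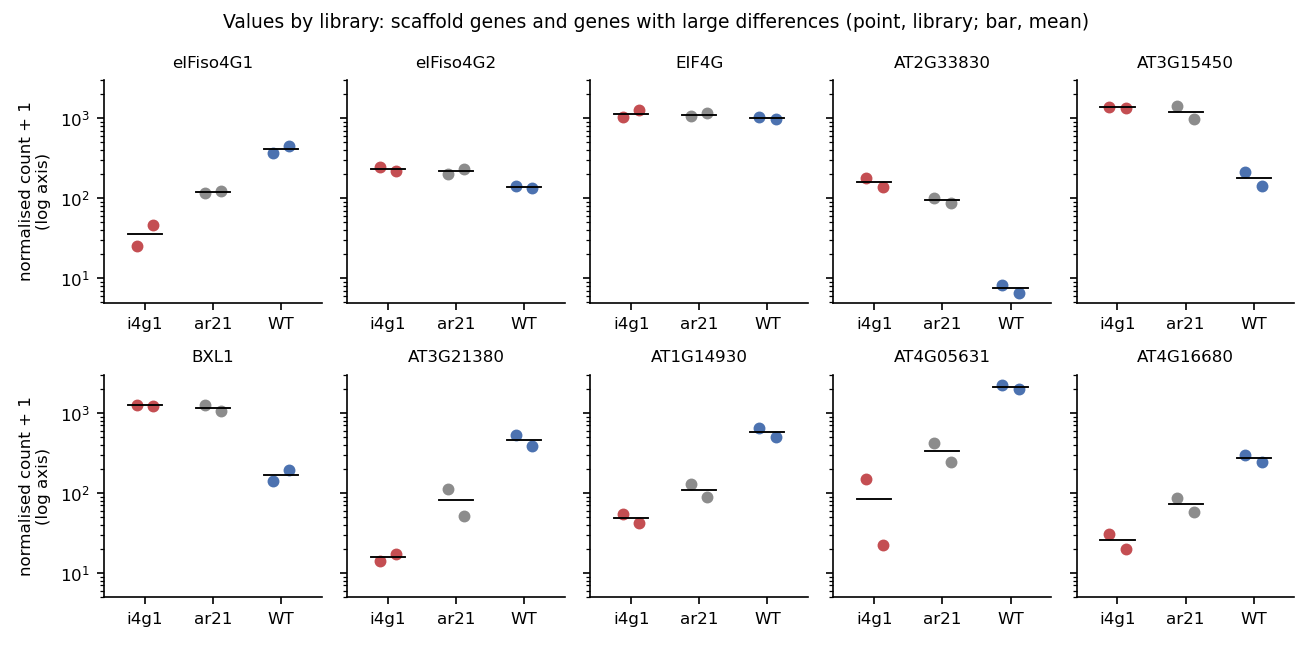
Normalised counts plus 1 (log axis) of scaffold genes and genes with large differences in each i4g1, ar21 and WT library (points), with group means (bars). eIFiso4G1 stands lowest in i4g1 (24.5 and 45.6) and highest in WT (368 and 454), and in AT2G33830, AT3G15450 and BXL1 both mutant lines lie above WT, while in the last 4 genes both lie below it.

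Over all nuclear genes tested, 1947 (12.6%) were called higher and 1428 (9.26%) lower in i4g1 than in WT, which is 21.9% in either direction. At least 2-fold differences made up 668 and 402 of these calls. The median difference over the genes tested was 0.02, and the 5th and 95th percentiles were −0.88 and 1.04. When each i4g1 or WT library was left out in turn, 785 of the higher and 505 of the lower calls held in all 4 fits; the calls against WT given with values in the paragraphs below held in all 4 unless the sentence or the next one says otherwise. Without i4g1 replicate 1 the calls numbered 1126 higher and 812 lower, and without i4g1 replicate 2 they numbered 1256 and 938. DESeq2 on the recovered reads called 738 higher (4.79%) and 468 lower (3.03%), and with it the higher calls of 47 of the 54 families and the lower calls of 34 were fewer by over 1.5 times. Against ar21, 26 genes (0.169%) were called higher and 14 (0.0908%) lower in i4g1; these comparisons share the i4g1 libraries. Of the calls against WT, 57.7% were higher; with the nuclear totals set equal, the share was 45.1% and the median over all genes was −0.06. The share called rose with level. In the lowest of 4 equal classes by mean normalised count, 5.45% were called higher and 4.13% lower. In the highest class, from 180.6 normalised counts up, 24.6% were called higher and 13.3% lower. The families below are annotation families and lists of known genes. Their counts are to be read against the 12.6% and 9.26% over all genes, and for families at a high level against the highest class.

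**Figure D2:**
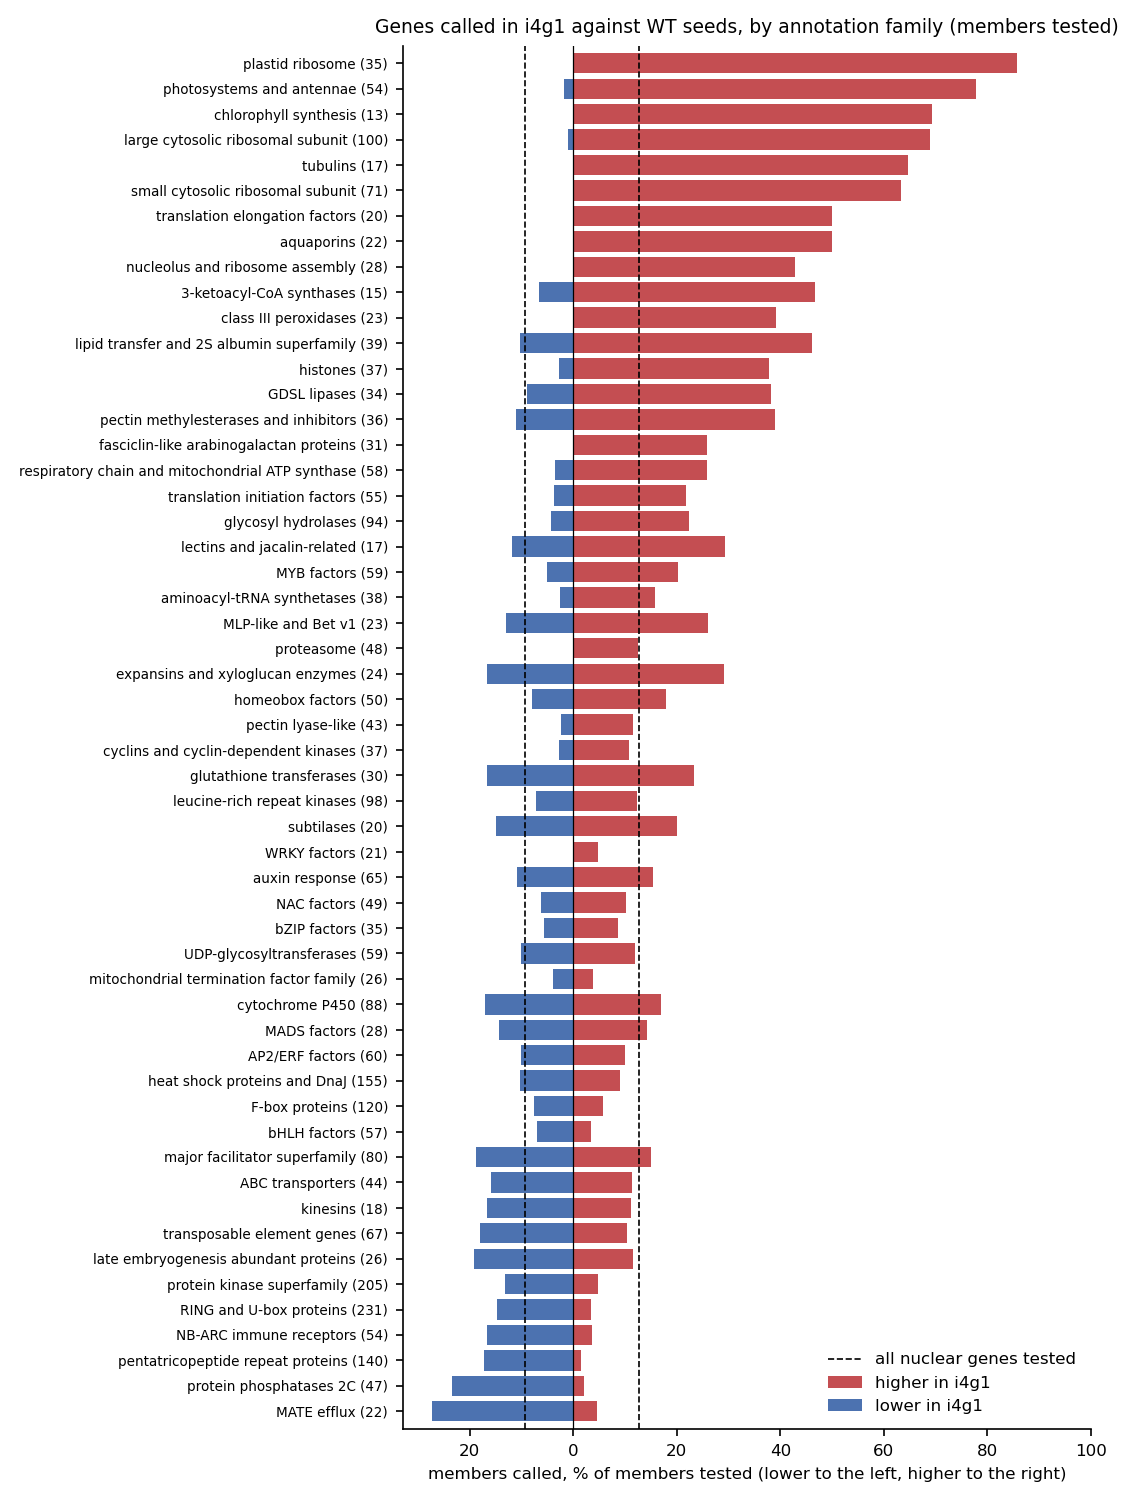
Percent of tested members called higher (right) or lower (left) in i4g1 than in WT for each family, with the percent over all nuclear genes (12.6% and 9.26%) as dashed lines. The plastid ribosome (85.7%) and photosystems (77.8%) reach furthest to the higher side, before chlorophyll synthesis, the large cytosolic subunit, tubulins and the small subunit. MATE efflux genes and protein phosphatases 2C reach furthest to the lower side, though the median difference of the MATE genes was 0.02.

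Cytosolic ribosomal protein genes stood higher in i4g1 as a group. Of 110 large subunit genes in the table, 100 were tested, 69 were called higher and 1 lower, with a median difference of 0.62. Of 82 small subunit genes, 71 were tested and 45 were called higher, with a median of 0.60. Without i4g1 replicate 1 the higher calls were 46 and 29, and with DESeq2 they were 45 and 29. RPL34C, RPL35AC and RPL8C of the large subunit led. RPL34C had 622 and 490.3 normalised counts in i4g1 seeds, against 157 and 258 in WT seeds (log2 difference 1.45 ± 0.20, adjusted p = 0.00046). RPL35AC had 498 and 384 in i4g1 seeds, against 190.2 and 165 in WT seeds, and RPL8C had 535 and 401 in i4g1 seeds, against 182 and 235 in WT seeds, with log2 differences of 1.30 ± 0.15 and 1.16 ± 0.16. In each of them both i4g1 libraries lay above both WT libraries. In the small subunit, RPS2C had 2964 and 2520.2 in i4g1 seeds, against 1259 and 1322 in WT seeds (log2 difference 1.08 ± 0.13, adjusted p = 0.000198), and RPS15D had 672 and 669 in i4g1 seeds, against 324 and 333 in WT seeds. EMB3010, which codes for S6, the phosphorylated protein of the small subunit, had 2655 and 2262 in i4g1 seeds, against 1171 and 1263 in WT seeds, and here too the groups did not overlap. The member with the highest level in the large subunit, RPL18AB, had 2514 and 2377 in i4g1 seeds, against 1242 and 1437 in WT seeds (log2 difference 0.87 ± 0.12, adjusted p = 0.000527). The single lower call was AT2G40205 for L41, the shortest ribosomal protein, with 88.3 and 46.4 in i4g1 seeds, against 106 and 123 in WT seeds, a call lost in other fits (adjusted p = 0.313 without i4g1 replicate 2 and 0.0697 without WT replicate 1 and 0.157 without WT replicate 2). Most ribosomal proteins are coded by several near-identical genes, so counting could split reads between copies and the value of a single copy is uncertain.

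Promoters of ribosomal protein genes are known for the telo box and for site II elements. In 300 bases around each annotated start (250 before and 50 after, TAIR10.1, RefSeq annotation), searched on both strands, the telo box letters AAACCCTA were in 51.0% of the large subunit and 43.7% of the small subunit promoters, and in 5.86% of all 15393 promoters of tested genes. Site II letters TGGGCC were in 70.0% and 59.2%, against 20.8% of all. Both together were in 39.0% and 29.6%, against 2.09% of all. Neither motif holds the letters of the other, but their matches can share an end base, which was not checked. Of promoters of genes called higher in i4g1, 9.87% held the telo box, and of those called lower 3.64%, but the ribosomal protein genes are a part of the higher set. A match describes letters only. The following 250 bases before the start, from genes called higher in i4g1, with both motifs and no other annotated gene in the window, are shown 5′ to 3′ on the gene's strand with both motifs in capitals; they were chosen after the values were seen.
RPL36A, chr2:15775375-15775624, − strand: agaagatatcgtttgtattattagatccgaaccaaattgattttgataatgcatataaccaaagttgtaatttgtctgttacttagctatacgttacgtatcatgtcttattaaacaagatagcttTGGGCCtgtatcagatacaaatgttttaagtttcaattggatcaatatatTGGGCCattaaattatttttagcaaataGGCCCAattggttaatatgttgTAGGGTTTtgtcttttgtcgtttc
AT4G00810, chr4:347294-347543, − strand: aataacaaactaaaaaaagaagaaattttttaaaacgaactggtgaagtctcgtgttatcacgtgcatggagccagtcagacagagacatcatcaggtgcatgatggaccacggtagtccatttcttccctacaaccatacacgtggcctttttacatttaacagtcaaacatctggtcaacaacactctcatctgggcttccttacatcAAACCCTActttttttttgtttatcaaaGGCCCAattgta
RPS7C, chr5:5268171-5268420, + strand: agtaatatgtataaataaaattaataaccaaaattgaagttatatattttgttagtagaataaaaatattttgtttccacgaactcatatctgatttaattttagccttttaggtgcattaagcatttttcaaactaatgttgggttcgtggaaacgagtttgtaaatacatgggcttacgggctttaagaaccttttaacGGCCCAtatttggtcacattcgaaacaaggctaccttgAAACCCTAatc
RPL36A had 610.0 and 555 normalised counts in i4g1 seeds, against 290.1 and 389 in WT seeds, AT4G00810, which codes for the acidic stalk protein P1, had 285 and 283 in i4g1 seeds, against 171 and 165 in WT seeds, and RPS7C had 691 and 699 in i4g1 seeds, against 423 and 473 in WT seeds. The log2 differences were 0.79, 0.76 and 0.63, and in none of the genes did the groups overlap.

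In the rest of the translation machinery, genes for ribosome assembly and elongation factors had more higher calls than all genes, with medians below those of ribosomal proteins. Aminoacyl-tRNA synthetases (15.8% higher) and, outside translation, proteasome genes (12.5%) were near the 12.6% of all genes. Of 28 tested genes for the nucleolus and ribosome assembly, 12 were called higher, with a median of 0.39. The count was 3 without i4g1 replicate 1, 5 without i4g1 replicate 2 or WT replicate 1, and 6 without either ar21 library or with the nuclear totals set equal. NOP5-1, for a core protein of box C/D particles that methylate rRNA, had 177 and 169.7 normalised counts in i4g1 seeds, against 69.5 and 78.4 in WT seeds (log2 difference 1.22 ± 0.15, adjusted p = 0.000291), with the i4g1 libraries above the WT libraries. Of the promoters of this family, 7 held both motifs. Of 55 tested initiation factor genes, 12 (21.8%) were called higher and 2 lower. Their median level was 210 in i4g1 and 204 in WT, and of all genes in the highest level class 24.6% were called higher. EIF3K and EIF3G1, for subunits of the eIF3 complex, had 700.0 and 604 in i4g1 seeds, against 371 and 319 in WT seeds, and 599.5 and 512 in i4g1 seeds, against 301 and 342 in WT seeds. Of 20 tested elongation factor genes, 10 were called higher. AT5G60390, 1 of the near-identical EF1A genes, had 14728 and 13923 in i4g1 seeds, against 7386 and 7809.9 in WT seeds (log2 difference 0.91 ± 0.17, adjusted p = 0.00272), and AT1G09640, for the gamma chain of EF1B, had 1632 and 1426 in i4g1 seeds, against 786 and 913 in WT seeds. emb2726, for plastid elongation factor Ts, had 203 and 361 in i4g1 seeds, against 87.8 and 89.6 in WT seeds (log2 difference 1.60 ± 0.22, adjusted p = 0.000463). In these 3 genes the lines did not overlap. Aminoacyl-tRNA synthetases had 6 of 38 tested genes called higher and 1 lower, with none called in all 4 fits with a library left out. Proteasome genes had 6 of 48 called higher, which was 1 without i4g1 replicate 1. RPT1A, the proteasome gene with the highest level, had 896 and 867 in i4g1 seeds, against 1062 and 809 in WT seeds (log2 difference −0.07 ± 0.14).

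The plastid ribosome, which is built from nuclear and plastid gene products, had the largest share of higher calls among the 54 families. Of 38 plastid ribosomal protein genes in the table, 35 were tested and 30 (85.7%) were called higher (21 with DESeq2), with a median of 0.99. In 34 of the 35 both i4g1 libraries lay above both WT libraries, against 31.2% of all nuclear genes. SSR16, the member with the highest level, had 1478 and 1164 normalised counts in i4g1 seeds, against 736 and 630.1 in WT seeds (log2 difference 0.94 ± 0.17, adjusted p = 0.00242). AT4G17560, for a protein of the L19 family, had 67.3 and 91.6 in i4g1 seeds, against 24.4 and 22.4 in WT seeds. Both stood higher in each i4g1 library.

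Photosystem and antenna genes stood higher in i4g1 too. Of 71 in the table, 54 were tested, 42 were called higher (32 with DESeq2) and 1 lower, with a median of 0.96. LHCB2.2 and LHB1B2 code for the main light-harvesting proteins of photosystem II. LHCB2.2 had 505 and 686 normalised counts in i4g1 seeds, against 143 and 176 in WT seeds (log2 difference 1.88 ± 0.18, adjusted p = 5.41e-05), and LHB1B2, at the highest level of the family, had 9793 and 7909 in i4g1 seeds, against 3462 and 3584 in WT seeds (log2 difference 1.32 ± 0.16, adjusted p = 0.000208). Both stood above WT in each i4g1 library, and both have near-identical copies between which reads could be split. PSBQ (AT4G21280), for a protein of the oxygen-evolving complex, had 224 and 295 in i4g1 seeds, against 67.0 and 84.0 in WT seeds (log2 difference 1.76 ± 0.18, adjusted p = 7.67e-05). The single lower call was ELIP2, for an early light-induced protein that appears under light stress, with 86.5 and 88.5 in i4g1 seeds, against 117 and 154 in WT seeds, and it was lost in other fits (adjusted p = 0.119 without i4g1 replicate 1 and 0.0899 without i4g1 replicate 2 and 0.16 without WT replicate 2). In chlorophyll synthesis 13 of 18 genes were tested and 9 were called higher (5 without i4g1 replicate 2). PORB, for the light-dependent protochlorophyllide reductase, had 426 and 627 in i4g1 seeds, against 97.5 and 134 in WT seeds (log2 difference 2.16 ± 0.20, adjusted p = 4.75e-05). GSA2, for an early step of the pathway, had 114 and 136 in i4g1 seeds, against 48.8 and 39.2 in WT seeds (log2 difference 1.49 ± 0.20, adjusted p = 0.000377). For both genes every i4g1 library was above every WT library.

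The I box, known from promoters of light-regulated genes, was searched as GATAAG in the same windows. It was in 37.7% of 53 photosystem promoters and 42.9% of 35 plastid ribosome promoters, against 14.8% of all promoters. The 250 bases before the start of a pair of photosystem I subunit genes, chosen after their values were seen in the same way as above, hold it in capitals.
PSAF, chr1:11216142-11216391, − strand: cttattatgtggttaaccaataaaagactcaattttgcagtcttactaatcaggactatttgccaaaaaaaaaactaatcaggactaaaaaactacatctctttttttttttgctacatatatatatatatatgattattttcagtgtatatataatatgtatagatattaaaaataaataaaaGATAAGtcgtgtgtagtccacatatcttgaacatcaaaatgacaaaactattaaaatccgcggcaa
PSAD-1, chr4:1230165-1230414, − strand: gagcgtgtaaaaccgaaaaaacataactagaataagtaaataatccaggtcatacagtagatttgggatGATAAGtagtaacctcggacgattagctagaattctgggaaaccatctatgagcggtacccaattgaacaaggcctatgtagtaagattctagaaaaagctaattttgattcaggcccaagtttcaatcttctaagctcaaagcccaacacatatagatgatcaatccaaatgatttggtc
PSAF had 1076 and 1194 normalised counts in i4g1 seeds, against 434 and 543 in WT seeds (log2 difference 1.22 ± 0.13, adjusted p = 0.000124), and PSAD-1 had 778 and 839 in i4g1 seeds, against 361 and 423 in WT seeds (log2 difference 1.05 ± 0.13, adjusted p = 0.000239). Neither gene's lines overlapped.

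**Figure D3:**
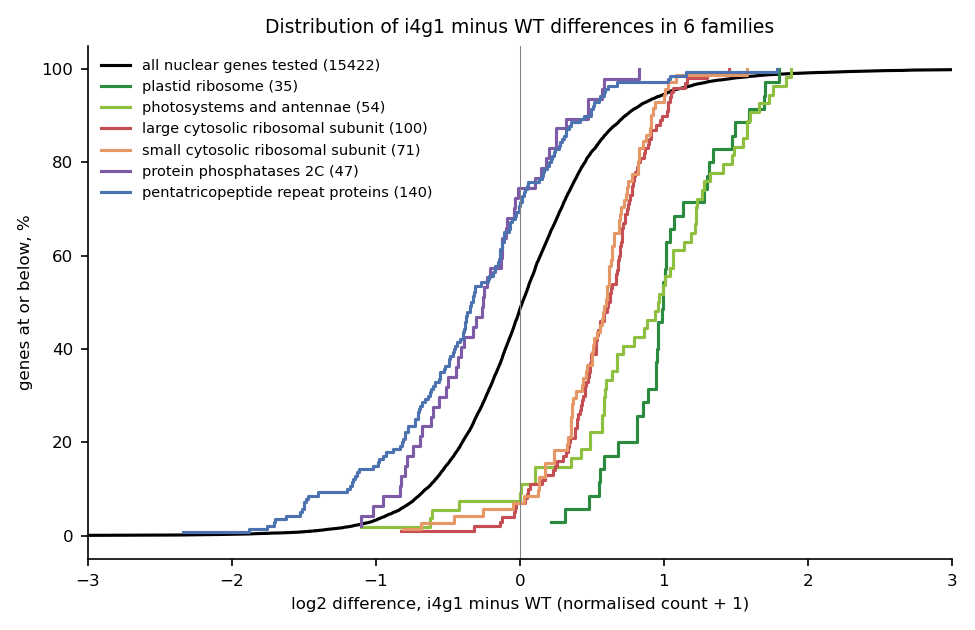
Cumulative percent of tested genes (vertical axis) at or below each log2 difference, i4g1 minus WT (horizontal axis), for 6 families and all nuclear genes. The medians lie at 0.99 for the plastid ribosome, 0.96 for photosystems, 0.62 and 0.60 for the cytosolic subunits, 0.02 for all genes and −0.33 for pentatricopeptide repeat proteins.

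Pentatricopeptide repeat proteins, which bind single organelle transcripts and edit, splice or stabilise them, went the other way. Of 263 loci annotated with the repeat, 140 were tested, 24 (17.1%) were called lower and 2 higher, and the median was −0.33. The lower calls were 12 without i4g1 replicate 1 and 13 without i4g1 replicate 2, and 10 held in all 4 such fits. DESeq2 called 7 lower. AT5G55840 had 26.2 and 26.9 normalised counts in i4g1 seeds, against 86.5 and 98.0 in WT seeds (log2 difference −1.76 ± 0.24, adjusted p = 0.00043), and PCMP-H49 had 2.62 and 4.34 in i4g1 seeds, against 23.2 and 19.6 in WT seeds (log2 difference −2.34 ± 0.52, adjusted p = 0.00752). In both genes the i4g1 libraries lay below the WT libraries. PCMP-H49 rests on few reads and was not tested without either WT library, when its mean was under 10. The mitochondrial termination factor family, also made of organelle nucleic acid-binding proteins, had 1 of 26 tested genes called in each direction. Of 58 tested genes for the respiratory chain and mitochondrial ATP synthase, 15 were called higher and 2 lower, and the higher calls were 5 without i4g1 replicate 1, 6 without i4g1 replicate 2, 7 with the nuclear totals set equal and 2 with DESeq2. COX6B, for a subunit of cytochrome c oxidase, had 281 and 295 in i4g1 seeds, against 154 and 174 in WT seeds (log2 difference 0.81 ± 0.13, adjusted p = 0.00121), with i4g1 above WT.

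Histone and tubulin genes included many higher calls in limma. With DESeq2 the share of histone genes called higher was near that over all genes. Cyclins and cyclin-dependent kinases (10.8% higher) and kinesins (11.1% higher and 16.7% lower) were under the 12.6% higher calls of all genes. Of 47 histone genes, 37 were tested, 14 were called higher and 1 lower, with a median of 0.54; the higher calls were 5 without i4g1 replicate 1, 8 without WT replicate 2 and 2 with DESeq2. HTA11, for a variant of histone H2A, had 39.3 and 39.5 normalised counts in i4g1 seeds, against 14.6 and 8.40 in WT seeds (log2 difference 1.74 ± 0.32, adjusted p = 0.00281), and HTA4 had 20.1 and 19.5 in i4g1 seeds, against 3.66 and 2.80 in WT seeds (log2 difference 2.31 ± 0.44, adjusted p = 0.00337). The lines did not overlap in either gene. Of 17 tested tubulin genes, 11 were called higher, with a median of 0.63. TUB5 had 98.8 and 160.1 in i4g1 seeds, against 47.5 and 53.2 in WT seeds (log2 difference 1.31 ± 0.22, adjusted p = 0.00166), and TUB8 had 204 and 169.7 in i4g1 seeds, against 73.1 and 92.4 in WT seeds (log2 difference 1.17 ± 0.17, adjusted p = 0.000762), each above WT in both i4g1 libraries, though reads of tubulin genes can be split between copies. Cyclins and cyclin-dependent kinases had 4 of 37 called higher and 1 lower, and none of these calls held in all 4 fits with a library left out. Kinesins had 2 of 18 called higher and 3 lower, of which 1 lower call was left without i4g1 replicate 1. AT2G21380, a kinesin gene, had 124 and 146 in i4g1 seeds, against 230.4 and 269 in WT seeds (log2 difference −0.88 ± 0.17, adjusted p = 0.0034), with both i4g1 libraries below WT.

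Families that act at the cell wall and surface also gave more higher than lower calls. Aquaporins, the membrane water channels, had 22 tested genes, of which 11 were called higher, with a median of 0.74. TIP2 (AT3G26520) of the vacuole membrane had 33.2 and 51.2 normalised counts in i4g1 seeds, against 3.66 and 2.80 in WT seeds (log2 difference 3.33 ± 0.41, adjusted p = 0.000241), and RD28 of the plasma membrane had 279.7 and 297 in i4g1 seeds, against 122 and 109 in WT seeds (log2 difference 1.31 ± 0.16, adjusted p = 0.000274). ALPHA-TIP, the aquaporin of protein storage vacuoles and the member with the highest level, had 6287 and 4990.1 in i4g1 seeds, against 7744 and 7183 in WT seeds (log2 difference −0.41 ± 0.16, adjusted p = 0.0844). The first 2 genes stood higher in i4g1 without overlap, and ALPHA-TIP did not pass the test.

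Of 36 tested pectin methylesterases and their inhibitors, 14 were called higher and 4 lower. ATPMEPCRD had 119.7 and 145 normalised counts in i4g1 seeds, against 11.0 and 25.2 in WT seeds (log2 difference 2.91 ± 0.29, adjusted p = 7.8e-05), AT1G56100 had 206 and 139.7 in i4g1 seeds, against 31.7 and 44.8 in WT seeds, and AT4G25260 had 97.9 and 118 in i4g1 seeds, against 263 and 238 in WT seeds, with log2 differences of 2.14 ± 0.24 and −1.21 ± 0.15. The first 2 were higher and the third was lower in both i4g1 libraries. PME36, at the highest level, had 2368 and 1764 in i4g1 seeds, against 3440.0 and 3047 in WT seeds (log2 difference −0.66 ± 0.15, adjusted p = 0.00805), a lower call lost in 1 fit (adjusted p = 0.0558 without WT replicate 1). Glycosyl hydrolases had 21 of 94 tested genes higher and 4 lower. BGAL4, a beta-galactosidase gene, had 352 and 358 in i4g1 seeds, against 91.4 and 58.8 in WT seeds (log2 difference 2.26 ± 0.19, adjusted p = 2.66e-05), and AtGH9B15, for an endoglucanase-like enzyme, had 48.1 and 59.4 in i4g1 seeds, against 6.09 and 11.2 in WT seeds, both without overlap. BGAL3, the member with the highest level, had 2922 and 3110.3 in i4g1 seeds, against 4487 and 4489 in WT seeds (log2 difference −0.57 ± 0.13, adjusted p = 0.00703), with both i4g1 libraries below WT.

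Expansins and xyloglucan enzymes, which loosen and remodel the wall, had 7 of 24 tested genes higher and 4 lower, and each direction lost calls without an i4g1 library (4 higher without replicate 1, 2 lower without replicate 2). ATEXPA15, the member with the highest level, had 908 and 891 normalised counts in i4g1 seeds, against 1886 and 3506 in WT seeds (log2 difference −1.51 ± 0.21, adjusted p = 0.000519), and MERI5B had 172 and 206 in i4g1 seeds, against 74.4 and 58.8 in WT seeds (log2 difference 1.50 ± 0.19, adjusted p = 0.000289). The expansin lay below and MERI5B above WT in both i4g1 libraries. Class III peroxidases had 9 of 23 tested genes higher, with AT5G15180 at 70.8 and 87.2 in i4g1 seeds, against 14.6 and 22.4 in WT seeds. Fasciclin-like and other arabinogalactan proteins had 8 of 31 higher, with AGP18 at 77.8 and 61.6 in i4g1 seeds, against 24.4 and 25.2 in WT seeds. In these genes i4g1 and WT did not overlap. Pectin lyase-like genes had 5 of 43 higher (3 without i4g1 replicate 2) and 1 lower. Subtilases had 4 of 20 higher and 3 lower (1 lower without i4g1 replicate 1), and ATSBT1.1 had 1166 and 1043 in i4g1 seeds, against 251 and 395 in WT seeds (log2 difference 1.80 ± 0.19, adjusted p = 9.5e-05), again without overlap.

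Surface lipid families gave more higher than lower calls as well. The lipid transfer and 2S albumin superfamily had 18 of 39 tested genes higher and 4 lower (10 higher without i4g1 replicate 2 and 11 with the nuclear totals set equal), GDSL lipases had 13 of 34 higher and 3 lower (5 higher without i4g1 replicate 2 and 7 without WT replicate 1), and 3-ketoacyl-CoA synthases, which lengthen acyl chains for waxes, cutin-linked lipids and seed oil, had 7 of 15 higher and 1 lower. KCS5 had 46.3 and 56.4 normalised counts in i4g1 seeds, against 8.53 and 5.60 in WT seeds (log2 difference 2.72 ± 0.30, adjusted p = 0.000139), and KCS19 had 79.5 and 99.4 in i4g1 seeds, against 17.1 and 25.2 in WT seeds (log2 difference 2.05 ± 0.25, adjusted p = 0.000251). FAE1, the synthase for the long acyl chains of seed oil, had 3759.7 and 2730.2 in i4g1 seeds, against 3295 and 3117 in WT seeds (adjusted p = 0.999). KCS5 and KCS19 were higher without overlap, while the FAE1 values of the lines were interleaved. GLIP6 had 764 and 729 in i4g1 seeds, against 204 and 342 in WT seeds (log2 difference 1.50 ± 0.20, adjusted p = 0.000377), also without overlap. AT5G38195, a lipid transfer gene, had 80.4 and 84.6 normalised counts in i4g1 seeds, 193 and 152 in ar21 seeds, and 196 and 229.6 in WT seeds, and fell by 1.35 against WT (SE 0.16, adjusted p = 0.000225). Both i4g1 libraries lay below all the others.

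Transporter and metabolic families had calls in both directions. Of 80 tested genes of the major facilitator superfamily 12 were called higher and 15 lower (5 higher without i4g1 replicate 2, 8 lower without i4g1 replicate 1), and of 44 ABC transporter genes 5 and 7 (3 higher without i4g1 replicate 2). PIS1, for a carrier of auxin precursors, had 211 and 128 normalised counts in i4g1 seeds, against 484 and 369.6 in WT seeds (log2 difference −1.36 ± 0.21, adjusted p = 0.000996), and ABCG20, which works in suberin export, had 2384 and 2815 in i4g1 seeds, against 1658 and 1666 in WT seeds (log2 difference 0.64 ± 0.14, adjusted p = 0.0074). PIS1 was lower and ABCG20 higher in both i4g1 libraries. MATE efflux genes had 1 of 22 tested higher and 6 lower, with a median of 0.02 and 11 differences above 0. AT5G65380 of this family had 180.0 and 171 in i4g1 seeds, against 508 and 512 in WT seeds (log2 difference −1.54 ± 0.13, adjusted p = 2.86e-05). Cytochrome P450 genes had 15 of 88 called in each direction (8 in each without i4g1 replicate 2), glutathione transferases 7 of 30 higher (2 without i4g1 replicate 2) and 5 lower, and UDP-glycosyltransferases 7 of 59 higher and 6 lower (3 in each without i4g1 replicate 1). CYP71B26 had 168 and 138 in i4g1 seeds, against 551 and 605 in WT seeds (log2 difference −1.91 ± 0.14, adjusted p = 1.17e-05), and UGT88A1 had 79.5 and 102 in i4g1 seeds, against 17.1 and 30.8 in WT seeds (log2 difference 1.93 ± 0.28, adjusted p = 0.0006). ATGSTU4 had 16.6 and 16.9 in i4g1 seeds, against 71.9 and 56.0 in WT seeds (log2 difference −1.86 ± 0.29, adjusted p = 0.000963). CYP71B26 and ATGSTU4 lay below WT, and UGT88A1 above it, without overlap.

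Most signalling families, though not the leucine-rich repeat kinases, carried more lower than higher calls. Protein phosphatases 2C, which include the abscisic acid co-receptors, had 11 of 47 tested genes (23.4%) called lower and 1 higher, with a median of −0.25. These lower calls fell to 5 without i4g1 replicate 1 and 7 without i4g1 replicate 2 or WT replicate 1, and 3 held in all 4 such fits. DESeq2 called 4 lower. PPC6-1 had 128 and 146 normalised counts in i4g1 seeds, against 223 and 266 in WT seeds (log2 difference −0.83 ± 0.15, adjusted p = 0.00236). RING and U-box proteins, mostly ubiquitin ligases, had 34 of 231 lower (14.7%) and 8 higher, with 20 lower without i4g1 replicate 1 and 8 with DESeq2. The DESeq2 share of lower calls in this family was near that over all genes, and its median in limma was −0.09. AT1G53490 had 8.74 and 7.81 in i4g1 seeds, against 46.3 and 47.6 in WT seeds (log2 difference −2.37 ± 0.33, adjusted p = 0.000488), and AT1G30860 had 99.6 and 84.6 in i4g1 seeds, against 309.6 and 193 in WT seeds. Protein kinases had 27 of 205 lower (13.2%) and 10 higher, and 11 lower without i4g1 replicate 1. AT5G03640 had 19.2 and 14.3 in i4g1 seeds, against 46.3 and 56.0 in WT seeds (log2 difference −1.56 ± 0.30, adjusted p = 0.00375). Leucine-rich repeat kinases had 12 of 98 higher and 7 lower, but 2 higher without i4g1 replicate 2 and 1 lower without i4g1 replicate 1. Of 54 tested NB-ARC genes, the intracellular immune receptors, 9 were lower and 2 higher, with a median of −0.29 (5 lower without i4g1 replicate 1). RPP1 had 178 and 187 in i4g1 seeds, against 335 and 344 in WT seeds (log2 difference −0.89 ± 0.12, adjusted p = 0.000495), and RPP8L3 had 61.2 and 66.4 in i4g1 seeds, against 151 and 196 in WT seeds. In each of the genes named in these families both i4g1 libraries lay below both WT libraries. F-box proteins had 7 of 120 higher (3 without i4g1 replicate 1) and 9 lower.

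Large falls outside the loci that match an organelle genome were seen in genes of other kinds. AT3G21380, for a jacalin-type lectin, had 13.1 and 16.1 normalised counts in i4g1 seeds, 109.5 and 49.8 in ar21 seeds, and 531 and 389 in WT seeds (log2 difference −4.88 ± 0.31, adjusted p = 5.66e-06). AT1G14930 and AT1G14940, neighbouring genes of the MLP and Bet v1 family whose reads could be split between them, had 54.2 and 40.8 in i4g1 seeds, against 639 and 501 in WT seeds, and 134 and 101 in i4g1 seeds, against 937 and 770.1 in WT seeds (log2 difference −3.56 ± 0.21, adjusted p = 4.14e-06 for the first). AT4G16680, annotated as a nucleoside triphosphate hydrolase, had 29.7 and 19.1 in i4g1 seeds, against 299 and 241 in WT seeds (log2 difference −3.44 ± 0.25, adjusted p = 1.21e-05). GASA2, for a small gibberellin-regulated peptide, had 25.3 and 20.8 in i4g1 seeds, against 183 and 146 in WT seeds, and BGLU19, a beta-glucosidase gene beside AT3G21380, had 87.4 and 75.5 in i4g1 seeds, against 689 and 454 in WT seeds. In all 6 genes both i4g1 libraries lay well below both WT libraries. AT4G05631, with no description in the files used, had 147 and 21.3 in i4g1 seeds, against 2242 and 1969 in WT seeds (log2 difference −5.20 ± 0.59, adjusted p = 0.000156), and its i4g1 libraries also differed widely from each other. The lectin family as a whole had 5 of 17 tested genes higher (1 without i4g1 replicate 1) and 2 lower, and the MLP family 6 of 23 higher and 3 lower. MLP28 had 520.0 and 779 in i4g1 seeds, against 71.9 and 179 in WT seeds (log2 difference 2.48 ± 0.31, adjusted p = 0.000291), above WT in both libraries.

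Seed storage and oil genes had few calls. Of the storage protein list 3 loci were not analysed here, 5 loci were tested and none was called by limma, edgeR or DESeq2, with a median of −0.33. At an unadjusted p under 0.05 limma had 0 higher and 1 lower. CRU2 (AT1G03880) had 60629 and 45674 normalised counts in i4g1 seeds, against 61878 and 52552 in WT seeds (log2 difference −0.12 ± 0.32, adjusted p = 0.834), and OLEO1, for the main oil body protein, had 131118 and 88885 in i4g1 seeds, against 97899 and 93842 in WT seeds (log2 difference 0.17 ± 0.40). Both genes' lines overlapped. OLEO2, of the same oil body family as OLEO1, had 32360.4 and 21414 in i4g1 seeds, against 40577 and 37803 in WT seeds (log2 difference −0.57 ± 0.27, adjusted p = 0.148), with both i4g1 libraries below WT; limma did not call it, and DESeq2 did (adjusted p = 0.0357). In oil assembly, 15 genes were tested, 1 was called higher and 2 lower, and in 6 both i4g1 libraries lay below both WT libraries (28.7% over all genes). FAD3, for the desaturase that makes linolenic acid, had 4680.0 and 3443 in i4g1 seeds, against 6897 and 6494 in WT seeds (log2 difference −0.74 ± 0.16, adjusted p = 0.00705), and FAD2, for the desaturase before it, had 22395 and 17569 in i4g1 seeds, against 13340.5 and 12848 in WT seeds (log2 difference 0.60 ± 0.20, adjusted p = 0.0494). FAD3 lay below and FAD2 above WT in both i4g1 libraries. The call of FAD2 was lost in most fits (adjusted p = 0.111 without i4g1 replicate 1 and 0.174 without WT replicate 1 and 0.23 without WT replicate 2). Plastid fatty acid synthesis had 3 of 26 genes higher and 1 lower, none of which held in all 4 fits.

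Late embryogenesis abundant proteins, which protect drying cells, had 3 of 26 tested genes higher and 5 lower (3 lower without i4g1 replicate 2). LEA4-5 had 108 and 108 normalised counts in i4g1 seeds, against 244 and 311 in WT seeds (log2 difference −1.34 ± 0.16, adjusted p = 0.000217), and AT3G15670, at the highest level of the family, had 2429 and 1944 in i4g1 seeds, against 5229 and 4606 in WT seeds (log2 difference −1.18 ± 0.15, adjusted p = 0.000318). Among 12 tested maturation regulators 1 was higher and 2 lower. DPBF2 (bZIP67), a partner of the LEC1-type factors, had 483 and 412 in i4g1 seeds, against 768 and 890.5 in WT seeds (log2 difference −0.89 ± 0.13, adjusted p = 0.000631), and DOG1, the dormancy gene, had 378 and 303 in i4g1 seeds, against 589 and 490.0 in WT seeds (log2 difference −0.66 ± 0.14, adjusted p = 0.00632). The first 3 genes lay below WT in both i4g1 libraries, and so did DOG1, whose call was lost in 1 fit (adjusted p = 0.0507 without i4g1 replicate 2). EEL, the regulator with the highest level, had 1585 and 1218 in i4g1 seeds, against 1597 and 1400.1 in WT seeds (log2 difference −0.11 ± 0.14).

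Seed coat genes differed by pathway. Of 16 tested mucilage genes 6 were called higher and 1 lower. BXL1, for a beta-xylosidase that trims mucilage arabinan, had 1242 and 1236 normalised counts in i4g1 seeds, against 140.2 and 193 in WT seeds (log2 difference 2.90 ± 0.15, adjusted p = 2.8e-06), and MUM2, for a beta-galactosidase needed for mucilage release, had 56.8 and 82.0 in i4g1 seeds, against 9.75 and 16.8 in WT seeds (log2 difference 2.32 ± 0.29, adjusted p = 0.000272). ARA12, for a subtilase of the coat, had 6184 and 5603 in i4g1 seeds, against 3441 and 3377 in WT seeds (log2 difference 0.79 ± 0.14, adjusted p = 0.00197). All 3 stood above WT in both i4g1 libraries. Of 10 tested flavonoid genes, 3 were called lower (1 without WT replicate 2). TT5, for chalcone isomerase, had 39.3 and 29.5 in i4g1 seeds, against 76.8 and 106 in WT seeds (log2 difference −1.38 ± 0.24, adjusted p = 0.0018), below WT in both libraries. TT10, for the laccase that browns the coat, had 3629 and 3268 in i4g1 seeds, against 4170.1 and 3825 in WT seeds (log2 difference −0.21 ± 0.13, adjusted p = 0.278).

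Sugar starvation genes, induced when carbon is short, had 6 of 12 tested genes higher. AT3G15450 had 1376 and 1352 normalised counts in i4g1 seeds, 1405 and 974 in ar21 seeds, and 213 and 140.0 in WT seeds (log2 difference 2.97 ± 0.20, adjusted p = 8.51e-06), and DIN10, of the raffinose synthase family, had 1265 and 1348 normalised counts in i4g1 seeds, 1239 and 1229.7 in ar21 seeds, and 388 and 384 in WT seeds (log2 difference 1.76 ± 0.11, adjusted p = 5.66e-06). ASN1, for asparagine synthetase, had 14.9 and 13.9 in i4g1 seeds, against 2.44 and 0 in WT seeds. The i4g1 and ar21 libraries of AT3G15450 and DIN10 lay above both WT libraries, and ASN1 was higher in i4g1 than in WT at a level of few reads. AT2G33830, annotated as dormancy and auxin associated, had the largest rise of the stable calls, with 177 and 138 normalised counts in i4g1 seeds, 100.5 and 87.1 in ar21 seeds, and 7.31 and 5.60 in WT seeds (log2 difference 4.41 ± 0.24, adjusted p = 2.8e-06). It was barely present in WT and high in both i4g1 libraries, with ar21 between. The auxin response family had 10 of 65 tested genes higher and 7 lower (5 and 4 without i4g1 replicate 1), and PIN3, for an auxin efflux carrier, had 30.6 and 58.6 in i4g1 seeds, against 8.53 and 5.60 in WT seeds (log2 difference 2.45 ± 0.39, adjusted p = 0.00117), above WT in both.

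Of 18 tested clock genes 2 were called higher and 6 lower, with a median of −0.39. LHY, which peaks at dawn, had 21.8 and 20.4 normalised counts in i4g1 seeds, against 56.1 and 61.6 in WT seeds (log2 difference −1.43 ± 0.27, adjusted p = 0.00285), APRR9, which peaks in the morning, had 7.87 and 16.5 in i4g1 seeds, against 52.4 and 53.2 in WT seeds (log2 difference −2.11 ± 0.43, adjusted p = 0.00498), and TOC1, which peaks in the evening, had 225 and 252 in i4g1 seeds, against 149 and 134 in WT seeds (log2 difference 0.75 ± 0.14, adjusted p = 0.00273). The morning genes lay below and TOC1 above WT in both i4g1 libraries. PRR7, with the highest level, had 249.9 and 329.8 in i4g1 seeds, against 416 and 476 in WT seeds (log2 difference −0.63 ± 0.15, adjusted p = 0.0116), a call lost in other fits (adjusted p = 0.0997 without i4g1 replicate 1 and 0.0676 without WT replicate 2). The hour of harvest is not given in the labels used here. The lower calls were 4 without i4g1 replicate 1.

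Transcription factor families had calls in both directions, with shares of higher calls above the 12.6% of all genes in MYB (20.3%) and homeobox factors (18%). MADS factors had 14.3% called in each direction, with a median of −0.12. MYB factors had 12 of 59 higher and 3 lower, homeobox factors 9 of 50 and 4, NAC factors 5 of 49 and 3, AP2/ERF factors 6 of 60 and 6, bZIP factors 3 of 35 and 2, MADS factors 4 of 28 and 4, bHLH factors 2 of 57 and 4, and WRKY factors 1 of 21 higher. Without i4g1 replicate 1 the higher calls were 5 in MYB, 3 in homeobox, 3 in NAC and 2 in AP2/ERF factors, and those of bZIP, MADS and WRKY factors were lost. DREB2G, for a dehydration-responsive factor, had 14.0 and 22.6 normalised counts in i4g1 seeds, against 101 and 84.0 in WT seeds (log2 difference −2.31 ± 0.29, adjusted p = 0.000274), and AIL1, of the AINTEGUMENTA-like group, had 26.2 and 23.4 in i4g1 seeds, against 90.2 and 98.0 in WT seeds (log2 difference −1.88 ± 0.24, adjusted p = 0.000318). RD26, a NAC factor induced by abscisic acid, had 205 and 172 in i4g1 seeds, against 91.4 and 75.6 in WT seeds (log2 difference 1.17 ± 0.16, adjusted p = 0.000488), and ATMYBR1 had 563 and 483 in i4g1 seeds, against 304 and 280.0 in WT seeds (log2 difference 0.84 ± 0.13, adjusted p = 0.000799). The first 2 lay below and the last 2 above WT in both i4g1 libraries. Heat shock proteins and DnaJ chaperones had 14 of 155 higher and 16 lower (8 and 10 without i4g1 replicate 1). HSP70 (AT3G12580), which heat induces, had 509 and 439.6 in i4g1 seeds, against 1142 and 1297 in WT seeds (log2 difference −1.36 ± 0.14, adjusted p = 7.86e-05), and BIP1, its relative in the endoplasmic reticulum, had 2908 and 3181 in i4g1 seeds, against 2740.3 and 3072 in WT seeds (log2 difference 0.07 ± 0.14). HSP70 lay below WT without overlap.

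Some salicylic acid defence and cold-regulated genes were higher in i4g1, and more so in its replicate 2. Of 19 defence genes in the table, 8 were tested and 5 were called higher (3 without i4g1 replicate 2). PR1, the classical marker of that pathway, had 308 and 1218 normalised counts in i4g1 seeds, 38.2 and 22.0 in ar21 seeds, and 98.7 and 53.2 in WT seeds (log2 difference 3.06 ± 0.49, adjusted p = 0.00119). PR5 had 118 and 493 normalised counts in i4g1 seeds, 20.1 and 11.7 in ar21 seeds, and 31.7 and 11.2 in WT seeds, and BGL2, for a beta-1,3-glucanase, had 70.8 and 292 normalised counts in i4g1 seeds, 45.2 and 14.6 in ar21 seeds, and 15.8 and 16.8 in WT seeds, with log2 differences to WT of 3.60 ± 0.58 and 3.07 ± 0.57. In all 3 genes replicate 2 of i4g1 was highest, replicate 1 came next and WT and ar21 lay below both. Of 17 cold-regulated genes, 13 were tested, 5 were called higher and 1 lower (3 higher without i4g1 replicate 2), while the summed values of the list, 5069 and 5967 in i4g1 and 6175 and 4732 in WT, overlapped. COR15A, for a protein that protects plastid membranes in frost, had 172 and 612 normalised counts in i4g1 seeds, 21.1 and 22.0 in ar21 seeds, and 64.6 and 39.2 in WT seeds (log2 difference 2.67 ± 0.44, adjusted p = 0.00131), in the same order of libraries, and COR15B beside it is a near-identical copy. COR78 had 76.0 and 262 normalised counts in i4g1 seeds, 27.1 and 33.7 in ar21 seeds, and 47.5 and 19.6 in WT seeds (log2 difference 2.17 ± 0.49, adjusted p = 0.00837), a call lost in other fits (adjusted p = 0.08 without i4g1 replicate 2 and 0.0678 without WT replicate 2). KIN2, at the highest level of the list, had 2339.6 and 2066 in i4g1 seeds, against 3029 and 2201 in WT seeds (log2 difference −0.23 ± 0.15).

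CA1 and LOX2, of the large stable differences, and RBCS-1B, chosen after its values were seen, showed the same order of libraries; photosystem genes as a family had a median of 0.04 for i4g1 replicate 2 minus replicate 1. CA1, for plastid carbonic anhydrase, had 115 and 415 normalised counts in i4g1 seeds, 24.1 and 16.8 in ar21 seeds, and 32.9 and 22.4 in WT seeds (log2 difference 2.96 ± 0.45, adjusted p = 0.000879), LOX2, for the lipoxygenase of jasmonate synthesis, had 107 and 391 normalised counts in i4g1 seeds, 12.1 and 19.0 in ar21 seeds, and 39.0 and 14.0 in WT seeds (log2 difference 3.07 ± 0.54, adjusted p = 0.00209), and RBCS-1B, for a small subunit of Rubisco with near-identical copies, had 82.2 and 296 normalised counts in i4g1 seeds, 14.1 and 11.7 in ar21 seeds, and 23.2 and 30.8 in WT seeds. Each was highest in i4g1 replicate 2. TGG2, a myrosinase gene among the shoot markers, had 33.2 and 124 normalised counts in i4g1 seeds, 6.03 and 9.52 in ar21 seeds, and 23.2 and 14.0 in WT seeds (log2 difference 1.78 ± 0.53, adjusted p = 0.0304), and the call was lost in other fits (adjusted p = 0.335 without i4g1 replicate 2 and 0.138 without WT replicate 2). The summed shoot list did not follow, as given above, and 1 of 3 tested genes was called. SUC2 and TGG1 made up most of that sum. SUC2 had 1294 and 1378 in i4g1 seeds, against 1452 and 1367 in WT seeds. TGG1 had 863 and 996 in i4g1 seeds, against 1164 and 949 in WT seeds. Of the untested genes, CER1 had 8.74 and 17.8 in i4g1 seeds, against 4.88 and 5.60 in WT seeds. FMA had 6.12 and 5.21, against 2.44 and 0, and AGL8 had 2.62 and 4.34, against 0 and 0. These genes lay above WT in both i4g1 libraries at few reads, and GL1 and IND1 were at 0. Among 9796 nuclear genes with a mean of at least 50 in i4g1, 37 stood at least 1.5 log2 units higher in i4g1 replicate 2 than in replicate 1, and 4 the other way. Whether other tissue in a pool of seeds had a part in this was not tested.

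The DRE core CCGAC, known as the binding letters of the CBF cold factors, was in 38.5% of 13 cold-regulated promoters, against 17.0% of all promoters, searched as above. The 250 bases before the starts of COR15A and COR78 hold it 2 and 3 times, in capitals on either strand.
COR15A, chr2:17712331-17712580, − strand: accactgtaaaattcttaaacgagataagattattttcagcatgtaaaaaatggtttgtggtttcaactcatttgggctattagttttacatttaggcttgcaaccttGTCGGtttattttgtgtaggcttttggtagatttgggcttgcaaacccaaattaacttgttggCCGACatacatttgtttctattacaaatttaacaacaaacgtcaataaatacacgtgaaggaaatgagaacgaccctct
COR78, chr5:21240467-21240716, + strand: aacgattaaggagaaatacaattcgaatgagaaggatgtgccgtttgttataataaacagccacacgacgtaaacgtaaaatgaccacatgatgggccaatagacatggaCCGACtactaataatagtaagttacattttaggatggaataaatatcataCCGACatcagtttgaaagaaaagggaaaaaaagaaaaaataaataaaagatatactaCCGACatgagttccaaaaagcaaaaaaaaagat
Both genes are described above, and both differ more between the i4g1 libraries than most genes of the list.

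**Figure D4:**
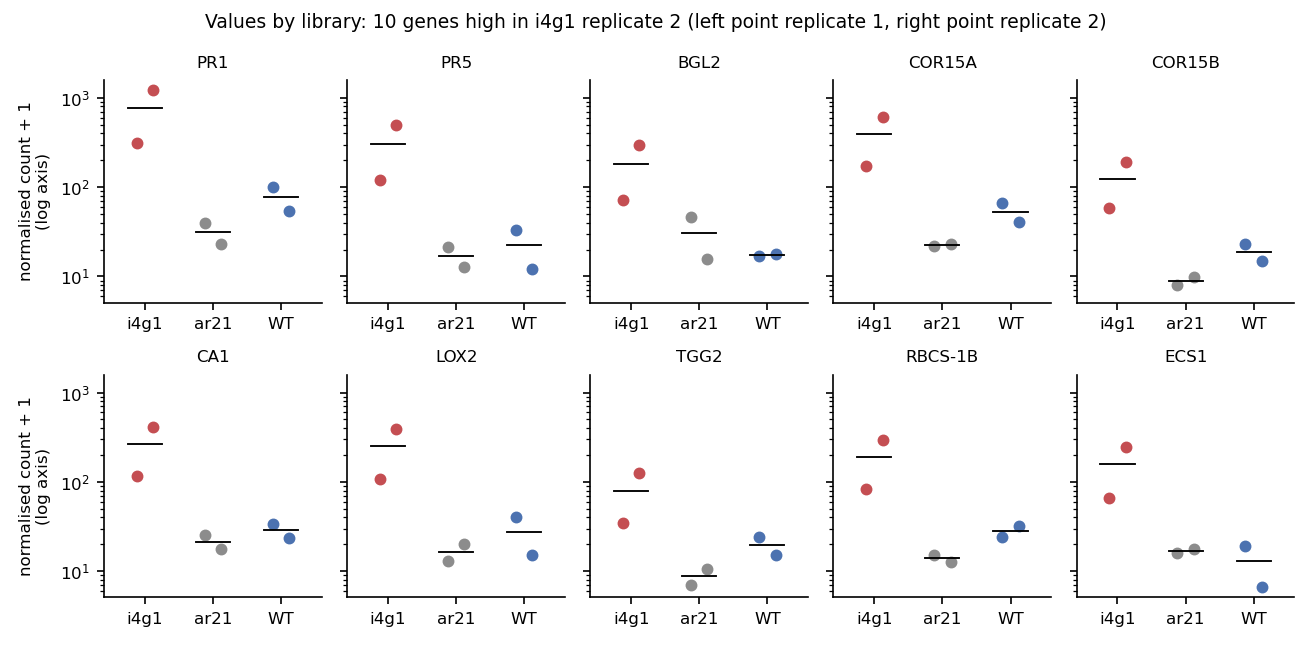
Normalised counts plus 1 (log axis) of 10 defence, cold-regulated and other genes in each i4g1, ar21 and WT library (left point replicate 1, right point replicate 2, bar the mean). The genes were chosen after their values were seen, as genes high in i4g1 replicate 2, which is highest in each of them. PR1 had 1218 in i4g1 replicate 2, 308 in i4g1 replicate 1 and 98.7 and 53.2 in WT.

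Short transcripts were higher more often than long ones. In the shortest of 4 equal classes of genes by spliced length (85 to 1304 nt), 18.6% were called higher and 6.49% lower, with a median of 0.15. In the next classes, up to 1790 and 2402 nt, 13.7% and 11.3% were higher and 6.05% and 8.60% lower. In the longest class (2403 to 16593 nt), 6.99% were called higher and 15.9% lower, with a median of −0.12. Without the ribosome and photosystem families the share called higher in the shortest class was 15.3%. Genes with 1 exon had 17.2% called higher and 9.09% lower, and genes with at least 10 exons had 6.97% and 13.3%. The median spliced length was 868 nt in large subunit ribosomal protein genes, against 1790 nt over all nuclear genes tested, so family and length overlap there. In RING and U-box genes it was 1846 nt, near that of all genes. Several other families with more lower than higher calls had longer transcripts, so family and length overlap there too. The median was 2370.5 nt in pentatricopeptide repeat, 3981.5 nt in NB-ARC and 4058.5 nt in kinesin genes. It was 2282 nt in protein kinase and 2072 nt in protein phosphatase 2C genes. F-box genes (1765.5 nt) and late embryogenesis abundant genes (1010.5 nt) had more lower than higher calls without longer transcripts.

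**Figure D5:**
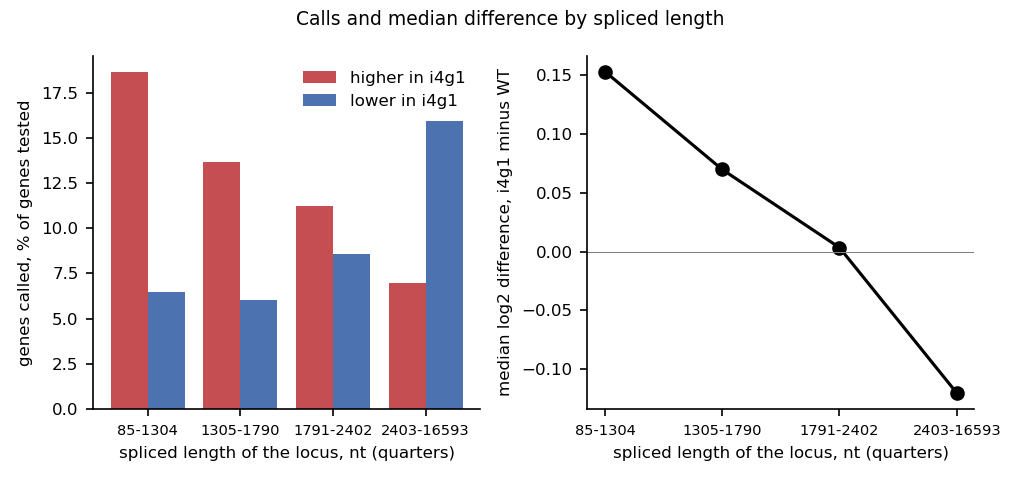
Percent of nuclear genes called higher or lower in i4g1 than in WT (left) and median log2 difference (right) in 4 equal classes of spliced length in nt. Higher calls drop from 18.6% in the shortest to 6.99% in the longest class, while lower calls go up to 15.9%.

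Few transposable element genes passed the filter, which does not show that the others are silent. Of 3873 in the table, 67 were tested, 7 were called higher and 12 lower (3 and 5 without i4g1 replicate 2). SADHU1-1, at the highest level, had 520.0 and 512 normalised counts in i4g1 seeds, against 269 and 263 in WT seeds (log2 difference 0.95 ± 0.11, adjusted p = 0.000222), and SADHU5-1 had 65.5 and 53.4 in i4g1 seeds, against 13.4 and 8.40 in WT seeds (log2 difference 2.37 ± 0.32, adjusted p = 0.000389). AT2G12490 had 16.6 and 11.7 in i4g1 seeds, against 152 and 101 in WT seeds (log2 difference −3.06 ± 0.36, adjusted p = 0.000186). The SADHU loci lay above and AT2G12490 below WT in both i4g1 libraries. A further 19 tested nuclear loci match an organelle genome or the 18S rRNA over most of their length. Of these, 18 were called lower (11 without WT replicate 2), with a median of −2.40, as in the mitochondrial copy MT-CYB (AT2G07727) on chromosome 2, with 10.5 and 4.34 in i4g1 seeds, against 109.7 and 134 in WT seeds. AT2G07698, for the alpha subunit of the F1 ATPase, had 47.2 and 18.2 in i4g1 seeds, against 369 and 369.6 in WT seeds (log2 difference −3.61 ± 0.34, adjusted p = 5.71e-05), and COX3, for a cytochrome c oxidase subunit, had 14.9 and 3.47 in i4g1 seeds, against 79.2 and 86.8 in WT seeds, both below WT in each i4g1 library. Reads from organelle transcripts could be counted there, and the organelle share given above differed the same way. Without these loci the lower calls over all nuclear genes numbered 1410.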

How the data were processed

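RNA sequencing libraries of developing seeds were made with a TruSeq kit of the second version, per the labels. The submitters' processing notes name DESeq2 1.12.4, HTSeq 0.6.0, STAR 2.4.0j and StringTie 1.0.3 among the authors' tools, and TAIR10 as build, without settings. Whether reads were counted by strand is not stated there. The deposited signal values are read counts divided by 1 size factor per library: every value was a whole multiple of 1 step of its library (100% within 0.001). Reads recovered from the steps entered the count tests for 5 libraries; ar21 replicate 1, whose step lies close to 1, was left out of them. The 6 value columns were assigned by their names, and 0 were left over.

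Values were tested as log2(normalised count + 1) in limma 3.58.1 (R 4.3.3), with 1 mean per line over all 6 libraries, a mean–variance trend, 3 residual degrees of freedom and a mean of at least 10. P-values are two-sided. With 2 libraries a line they measure the spread between pools of seeds. edgeR 4.0.16 and DESeq2 1.42.0 were run on the recovered reads as alternatives. Of the 15422 genes, 15397 matched the TAIR10.1 RefSeq annotation, which gave the lengths, coordinates and promoters. Matches to an organelle genome or the 18S rRNA were taken at 95% identity over at least 50% of the locus, an alternative added after seeing the data.

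Families were formed from the annotation text, and 15 lists, 4 of them of tissue markers, from known genes. The members, families and lists were chosen with earlier results of these data known, so their counts are descriptions with no set test. The 368 genes from which named genes were drawn are those among the 12 largest stable differences in each direction with a mean of at least 50, among the 3 largest called differences in each direction or the highest level of a family, scaffold genes, or the 6 genes whose i4g1 libraries differ most; a part of them is described. The printed promoters and other genes outside these rules, such as RBCS-1B, were chosen after their values were seen. A gene that these rules name is not reported here.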

Additional observations from a re-analysis of the deposited data

Results flagged for a closer look

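The genes below were singled out because i4g1 and ar21, each set against the same WT libraries, differed from each other in limma's test of that difference (adjusted p under 0.05). Over all nuclear genes, 26 (0.169%) were called higher and 14 (0.0908%) lower in i4g1 than in ar21, and these counts changed with single libraries: without i4g1 replicate 1 they were 70 and 25, and without ar21 replicate 2 they were 1 and 1. Values are log2 differences, i4g1 minus ar21.

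Lower in i4g1 than in ar21 were eIFiso4G1 (−1.803), the lectin gene AT3G21380 (−2.272), AT4G16680 (−1.512), AT1G14930 (−1.166) and the lipid transfer gene AT5G38195 (−1.046). In each of these genes ar21 lay between i4g1 and WT, and in AT5G38195 it lay close to WT (log2 difference ar21 minus WT −0.31).

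Higher in i4g1 were the defence genes PR1 (4.354) and PR5 (3.887), the cold-regulated genes COR15A (3.855) and COR15B (3.572), the lipid transfer genes pEARLI 1 (4.667) and LP1 (2.638), the lipase gene AT1G29660 (3.852), LOX2 (3.666), CA1 (3.378), TGG2 (2.925) and AT2G25510 (3.28), which the annotation does not describe. In each of these 11 genes i4g1 replicate 2 was above replicate 1, by more than 2-fold. Against WT, the calls of TGG2, pEARLI 1 and AT1G29660 were lost without at least 1 library, and pEARLI 1, AT1G29660 and AT5G35935 fell below the filter without i4g1 replicate 2. The transposable element gene AT5G35935 (5.606) had 41.9 and 54.2 normalised counts in i4g1 seeds, 0 and 0 in ar21 seeds, and 1.22 and 0 in WT seeds. It is listed at 0 in both ar21 libraries, so its difference depends on the pseudocount and is no bound.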

How the results depend on the processing

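Against WT, the counts of 1947 higher and 1428 lower nuclear genes stayed within 1.5 times under both pseudocounts, other filters, TMM scaling, equal nuclear totals, WT and i4g1 alone, and edgeR. On recovered reads of 5 libraries they were 738 and 468 with DESeq2, of which 737 and 466 were shared with limma. Leaving out 1 library gave 1126 to 1913 higher and 812 to 1168 lower. Equal nuclear totals gave 1426 and 1739. Against ar21, the 26 higher and 14 lower calls were 2 and 0 in limma without a filter on low values (918 and 751 at an unadjusted p under 0.05), 2 and 0 with edgeR (490 and 457 unadjusted), 3 and 4 with DESeq2, and 16 higher with equal nuclear totals; lower calls were 23 with nuclear loci only, and leaving out 1 library gave 1 to 70 higher and 0 to 25 lower. The 0 lower calls among these came without ar21 replicate 1 (294 unadjusted), and edgeR and DESeq2 also ran without that library. The cause of these changes was not tested. Leaving out 1 library, edgeR and DESeq2 hold fewer samples. The limma fits without a filter, with equal nuclear totals and with nuclear loci only hold all 6 libraries. No called named gene changed direction under these alternatives. The naming rules drew 368 genes, more than are described; 332 were called against WT, and of these 168 held in all 4 fits without 1 library. The text describes mostly these stable ones. Of the drawn genes, 162 lost their call with DESeq2, 47 with edgeR, 98 without i4g1 replicate 1 and 105 without i4g1 replicate 2. Of 54 families, DESeq2 gave over 1.5 times fewer higher calls in 47 and lower calls in 34, and edgeR fewer higher calls in 15.

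Deviations of same-numbered libraries correlated at −0.03 between i4g1 and WT, −0.08 between ar21 and WT and 0.12 between i4g1 and ar21, so the numbers were not taken to pair the lines. With a replicate block, 2051 and 1508 genes were called against WT, and 32 and 27 against ar21.

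Depth was lowest in WT replicate 2, where 1 read is 2.80 normalised counts, so differences in genes near the filter of 10 rest on a few reads.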

Other observations

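Many of the genes called higher in i4g1 than in ar21 followed i4g1 replicate 2. Of the 26, 15 had a mean of at least 50 in i4g1 and stood at least 1.5 log2 units higher in replicate 2 than in replicate 1. Some others called between i4g1 and ar21 did not, and those given here were chosen after their values were seen. AT4G34150, for a protein with a lipid-binding domain, had 93.5 and 90.7 normalised counts in i4g1 seeds, 11.1 and 13.9 in ar21 seeds, and 81.7 and 50.4 in WT seeds, and PYD2, for an enzyme of pyrimidine breakdown, had 97.0 and 108 normalised counts in i4g1 seeds, 35.2 and 39.5 in ar21 seeds, and 106 and 89.6 in WT seeds, with ar21 below every i4g1 and WT library in both genes (log2 difference i4g1 minus ar21 2.80 ± 0.27, adjusted p = 0.00411; log2 difference i4g1 minus ar21 1.43 ± 0.19, adjusted p = 0.0108). PME58, for a pectin methylesterase of the seed coat, had 555 and 489 normalised counts in i4g1 seeds, 1128 and 890.1 in ar21 seeds, and 219 and 291 in WT seeds, and AT1G62070 had 1626 and 1951 normalised counts in i4g1 seeds, 3182 and 3473 in ar21 seeds, and 447 and 588 in WT seeds. Both stood above WT in i4g1 and in ar21, and lower in i4g1 than in ar21 (log2 difference i4g1 minus ar21 −0.94 ± 0.16, adjusted p = 0.0337; log2 difference i4g1 minus ar21 −0.90 ± 0.15, adjusted p = 0.0329).

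Some genes with large falls lay next to each other. Among 34 nuclear genes that fell at least 4-fold and match no organelle genome or 18S rRNA, 13 (38.2%) had a called lower gene as a neighbour among the tested genes, against 17.5% of all 15378 such genes tested. The pairs with both genes past 4-fold were AT1G14930 with AT1G14940 (chromosome 1, 5152263 to 5153104, − strand and chromosome 1, 5154537 to 5155564, − strand) and BGLU19 with AT3G21380 (chromosome 3, 7524054 to 7527677, − strand and chromosome 3, 7528181 to 7530686, + strand), coordinates of TAIR10.1. Among 122 genes that rose at least 4-fold, 50 (41.0%) had a called higher neighbour, against 23.5% of all 15397 genes tested. PORB and AT4G27450 were such a pair, with AT4G27450 at 4593 and 3746 normalised counts in i4g1 seeds, against 1126 and 624 in WT seeds (log2 difference 2.30 ± 0.22, adjusted p = 6.51e-05). Their annotated ends overlap on opposite strands, so without the strand reads in the overlap cannot be told apart.

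The WT libraries stood far apart in AT1G08115, an snRNA locus, which had 198 and 30.8 normalised counts in i4g1 seeds, 46.2 and 22.7 in ar21 seeds, and 25.6 and 1162 in WT seeds.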
